A study of Homo sapiens with 12 samples.

Results

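CCL3, CCL4 and RGS1 are 3 genes of the 59276 features measured in total RNA of MM1S cells, a human multiple myeloma line. They were picked as being among the largest rises of NGI-1 libraries over untreated libraries, so those rises are given below as a description with no test. All 3 passed the filter on low values, which kept the 11939 features that reached 1 TPM in 3 or more libraries. A TPM value is a transcript's share of the RNA sequenced, corrected for transcript length. CCL4 and RGS1 passed it through the treated libraries, apart from 1 untreated library of RGS1 above 1 TPM.

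The series holds 12 libraries in 4 groups of 3. The untreated group is labelled day 0 (H1 to H3), and the treated groups were harvested after 2 days (H4 to H6), 3 days (H7 to H9) and 5 days (H10 to H12) with NGI-1 at 10 μM. NGI-1 blocks the oligosaccharyltransferase (OST) complex, which attaches N-linked glycans to proteins in the endoplasmic reticulum. Day 0 libraries carry NGI-1 as their label as well, but the study's text treats them as controls, and that reading was used. Whether those cells received the solvent is not settled, and no untreated library is labelled for a later day. All cells are of 1 line, and the labels do not say whether the libraries of a group came from separate cultures, so p-values measure the spread between libraries, which may be technical.

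CCL3 and CCL4, also called MIP-1α and MIP-1β, are secreted CC chemokines that draw in monocytes, T cells and NK cells through G protein-coupled receptors such as CCR1. Myeloma cells are known to secrete both, and in bone marrow CCL3 promotes osteoclast formation. RGS1 is a regulator of G protein signaling: it speeds GTP hydrolysis by Gαi and Gαq subunits, which shortens signaling from chemokine receptors, and it is an activation-responsive gene of B-lineage cells.

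CCL3 (ENSG00000277632.1) lies on the minus strand at chr17:36088256-36090169 of GRCh38 in GENCODE release 29, and CCL4 (ENSG00000275302.1) on the plus strand at chr17:36103590-36105621, with starts 13.4 kb apart. RGS1 (ENSG00000090104.11) lies on the plus strand at chr1:192575727-192580031. The 250 bases before the RefSeq start (GRCh38.p14) are shown for CCL3, RGS1 and CCL3L3, the near-identical copy of CCL3, because they show what the control regions of genes that rose together share and where they differ. They are given 5′ to 3′ on the gene's strand, and cover chr17:36090144-36090393 for CCL3, chr1:192575523-192575772 for RGS1 and chr17:36196759-36197008 for CCL3L3. The GENCODE starts of CCL3 and RGS1 lie inside these windows, so their last bases fall within the annotated genes, as does the RGS1 TATAAA. CCL4 and CCL4L2 are named only. Capitals mark matches, on either strand, to TGTGGT, the letters searched for RUNX factors, to TATAAA, those of the TATA box, and to an NF-κB motif that begins with GGGA and, after any 2 bases, ends with TTCC.
CCL3: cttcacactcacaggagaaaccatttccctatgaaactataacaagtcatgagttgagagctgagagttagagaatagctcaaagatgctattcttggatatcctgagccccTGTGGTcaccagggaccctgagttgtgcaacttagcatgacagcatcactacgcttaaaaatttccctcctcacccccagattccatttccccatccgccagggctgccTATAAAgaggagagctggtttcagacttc
RGS1: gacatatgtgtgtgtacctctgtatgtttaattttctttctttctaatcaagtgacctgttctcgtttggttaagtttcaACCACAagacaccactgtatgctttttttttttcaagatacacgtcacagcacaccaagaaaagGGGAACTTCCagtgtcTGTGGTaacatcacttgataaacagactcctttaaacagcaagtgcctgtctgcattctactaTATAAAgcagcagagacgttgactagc
CCL3L3: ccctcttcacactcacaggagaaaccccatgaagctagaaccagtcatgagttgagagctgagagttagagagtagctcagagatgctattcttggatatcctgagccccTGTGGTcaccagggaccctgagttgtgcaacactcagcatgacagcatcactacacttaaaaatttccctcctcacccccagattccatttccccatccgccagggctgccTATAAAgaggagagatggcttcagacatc

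CCL3 and RGS1 each held a TATAAA, starting 29 and 27 bases before the start, as 11.1% of 27305 RefSeq upstream windows of this length did. TGTGGT was found once in the CCL3 window, 138 bases before the start, and on both strands in the RGS1 window, at 90 and 170 bases. It was present in 10.9% of all windows. GGGAACTTCC, a match to the NF-κB letters, began 106 bases before the RGS1 start and was found in neither the CCL3 nor the CCL3L3 window. These letters occur in 1.42% of all windows. No match was found in the 3 windows to TGACGTCA (CRE, in 1.77% of all windows), to TGA and TCA around any 1 base (AP-1, 6.60%), to a pair of GAAA around any 2 bases (ISRE, 3.07%) or to TTC and GAA around any 3 bases (GAS, 6.78%). GGAAA (NFAT) was found at 3 places for CCL3, 2 for CCL3L3 and 0 for RGS1, and in 56.0% of all windows. The CCL3 and CCL3L3 windows were identical in 234 of 256 aligned columns (91.4%), the TATAAA and TGTGGT matches included. The motifs were chosen with the sequences in view, and a match describes letters, not a bound site.

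CCL3 was well expressed before treatment and rose further. Its level was 56.7, 48.1 and 57.5 TPM in the untreated libraries. It was 442.5, 478.7 and 409.8 TPM at day 2, 308.2, 324.6 and 303.1 TPM at day 3, and 354.7, 417.8 and 478.1 TPM at day 5. Every treated library stood above every untreated library, and the day 3 libraries lay below all those of day 2 and day 5. Over the 3 libraries of a group the mean was 54.1 ± 5.21 TPM (SD) without treatment, then 443.7 ± 34.5, 312.0 ± 11.2 and 416.9 ± 61.7 TPM on the 3 treated days. On the deposited log2(TPM + 1) scale the differences from untreated cells were 3.01, 2.51 and 2.92 (standard error 0.106 each), which ranked 12, 38 and 30 among the 11939 tested features. In TPM these are ratios of 8.20, 5.77 and 7.71. CCL3 had the highest TPM of 43 listed chemokine ligands in every library, untreated ones included.

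CCL4 was close to silent before treatment. It measured 0.341, 0.205 and 0.293 TPM in the untreated libraries. At day 2 it measured 44.97, 45.3 and 39.0 TPM, at day 3 25.9, 23.8 and 22.3 TPM, and at day 5 25.0, 26.7 and 29.3 TPM. The treated libraries all lay far above the untreated ones, and the day 2 libraries above those of both later days. The log2 differences from untreated cells were 5.11, 4.29 and 4.45 (standard error 0.109 each), ranking 2, 5 and 7 among tested features. Its mean was 0.280 ± 0.0693 TPM (SD, n = 3) without treatment, then 43.1 ± 3.56, 24.0 ± 1.80 and 27.0 ± 2.20 TPM, ratios of 154.2, 85.9 and 96.6. CCL4 was the fifth of the 43 ligands by TPM in each untreated library and the second in each treated library. TPM values keep no read counts, so the counting error of the low untreated values is unknown.

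RGS1 was also near silent before treatment and its course over days differed from that of the chemokines. Its level was 0.540, 1.10 and 0.454 TPM in the untreated libraries. It was 37.2, 36.2 and 41.5 TPM at day 2, 57.6, 43.9 and 57.8 TPM at day 3, and 36.1, 35.0 and 36.5 TPM at day 5. The day 3 libraries were the highest and overlapped with no other day. Its mean was 0.699 ± 0.353 TPM (SD, n = 3) without treatment, then 38.3 ± 2.80, 53.1 ± 7.93 and 35.8 ± 0.792 TPM. The log2 differences were 4.55, 5.00 and 4.46 (standard error 0.145 each), ranking 3, 4 and 6, and the TPM ratios were 54.8, 76.0 and 51.3. By TPM, RGS1 was at place 9 or 10 of 21 listed RGS genes in untreated libraries, 3 at day 2, 1 or 2 at day 3 and 2 at day 5.

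A feature is called here when limma gave a Benjamini-Hochberg adjusted p under 0.05 and a log2 difference over 0.5 in size. By that rule 8.03%, 7.59% and 7.73% of tested features were higher than untreated on days 2, 3 and 5, and 13.0%, 24.9% and 29.1% after the rescaling described next. Nothing is read from this for the 3 genes, which were picked on that contrast, and all treated groups were set against the same 3 untreated libraries. The median tested feature differed from untreated by -0.18, -0.73 and -0.99 on days 2, 3 and 5, so a gene that kept pace with the median lost TPM. In the rescaling, 1 factor per library brought the 5433 features averaging 10 TPM or more to a common median. It changed the order of days. The log2 rises of CCL3 were then 3.24, 3.40 and 4.19 at days 2, 3 and 5, those of CCL4 4.85, 4.68 and 5.22, and those of RGS1 4.40, 5.50 and 5.33. When 0.1 instead of 1 was added before the logarithm, the rises of CCL4 became 6.84, 6.004 and 6.17 and those of RGS1 5.67, 6.13 and 5.58, because both start below 1 TPM in their group means, while those of CCL3 were 3.04, 2.53 and 2.94.

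The treated days were then compared with each other in the limma fit of all 12 libraries. The genes were not picked on this contrast, but the day on which a gene was highest can have favoured its choice. The p-values of these comparisons are therefore not free of that choice. From day 2 to day 3, CCL3 fell by 0.50 on the log2 scale (standard error 0.106, adjusted p = 8.69e-04) and CCL4 fell by 0.82 (0.109, adjusted p = 3.28e-05). RGS1 differed by 0.45 in the other direction (standard error 0.145, adjusted p = 0.0120), under the size threshold of 0.5. Thus 2 of the 3 were called lower, as were 55.5% of all tested features, and 0 of 3 higher, against 3.22% of features. The median of all tested features moved by -0.57 over the same interval. Measured against that median, CCL3 moved by 0.067, CCL4 by -0.25 and RGS1 by 1.03. After rescaling, 15.2% of features were called higher and 12.3% lower over this interval. RGS1 was among the higher, with a difference of 1.11 (limma adjusted p = 1.61e-04). Those of CCL3 and CCL4 were 0.16 and -0.17 (limma adjusted p = 0.124 and 0.148).

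From day 3 to day 5, RGS1 fell by 0.54 (standard error 0.145, limma adjusted p = 0.0149) and was called lower, 1 of 3 against 13.1% of tested features. CCL3 differed by 0.41 (limma adjusted p = 0.0138), below the size threshold, and CCL4 by 0.16 (limma adjusted p = 0.273), so 0 of 3 were called higher against 0.670% of features. After rescaling, CCL3 rose by 0.79 (limma adjusted p = 2.14e-04) and CCL4 by 0.54 (limma adjusted p = 0.00319), where 4.81% of features were called higher and 1.82% lower. The difference of RGS1 was then -0.17 (limma adjusted p = 0.550).

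Between day 2 and day 5 CCL4 fell by 0.65 (limma adjusted p = 8.04e-05). CCL3 differed by -0.097 (limma adjusted p = 0.402) and RGS1 by -0.090 (limma adjusted p = 0.570), and their libraries overlapped between the days. That is 1 of 3 called lower against 69.8% of features, and 0 higher against 4.35%. Rescaled, all 3 differences were positive, at 0.95 for CCL3, 0.37 for CCL4 and 0.94 for RGS1, and those of CCL3 and RGS1 were called higher (limma adjusted p = 1.11e-06 and 3.25e-04), as were 20.7% of features, with 15.4% lower. By mean level on the deposited scale, CCL3 and CCL4 ran from untreated to day 3, day 5 and day 2, and RGS1 from untreated to day 5, day 2 and day 3. Of neighbours in that order among the treated days, 1 pair was called different, CCL4 at day 5 and day 2. Day 3 and day 5 for CCL3, and day 2 and day 3 for RGS1, did not overlap but missed the size threshold, and the other pairs overlapped. Several of these calls lay close to a threshold and changed when a single library was left out. That of CCL3 between day 2 and day 3 was lost without H5 (-0.45), H7 (-0.50) or H9 (-0.48), and that of RGS1 between day 3 and day 5 without H7 (-0.48), H9 (-0.48) or H11 (-0.53). The difference of RGS1 between day 2 and day 3 was called without H6 (0.51) or H8 (0.58), and that of CCL3 between day 3 and day 5 without H10 (0.52).

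Ratios between 2 of the genes within a library do not depend on how the libraries are scaled. The ratio of CCL3 to CCL4 TPM was 9.84, 10.6 and 10.5 in the day 2 libraries, 11.9, 13.6 and 13.6 at day 3, and 14.2, 15.6 and 16.3 at day 5. It was higher on each later day with no overlap between days. An exact permutation test over the 3 treated days gave p = 0.00357, the smallest the 1680 assignments allow (adjusted over 3 ratios, 0.00536). In the untreated libraries the ratio was 166.1, 235.1 and 196.3, so the 2 chemokines were much closer in level in the treated libraries. The ratio leaves out the copy genes described below. At days 2, 3 and 5 CCL3L3 held 9.77%, 8.12% and 6.76% of the TPM summed with CCL3. CCL4L2 held 21.1%, 23.4% and 26.8% of that summed with CCL4. How much of the climb in the ratio follows the split of reads between gene and copy was not tested.

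The ratio of RGS1 to CCL4 TPM was 0.827, 0.798 and 1.06 in the day 2 libraries, 2.22, 1.85 and 2.59 in those of day 3, and 1.44, 1.31 and 1.25 in those of day 5. Day 3 was highest and day 2 lowest, again without overlap (exact permutation p = 0.00357, adjusted 0.00536). The ratio of CCL3 to RGS1 was 11.9, 13.2 and 9.89 in the day 2 libraries, 5.36, 7.39 and 5.24 in those of day 3, and 9.84, 11.9 and 13.1 in those of day 5. It was lowest at day 3, and day 2 and day 5 overlapped (exact permutation p = 0.0286, adjusted 0.0286). These 3 tests were chosen after the values were seen. The 3 genes thus changed in unequal proportion over the treated days, and the ratios alone do not say which gene moved.

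CCL3 and CCL4 each have a near-identical copy gene whose reads can be split between gene and copy by the counting. CCL3L3 lies at chr17:36194869-36196758 and CCL4L2 at chr17:36210924-36212878. Of the 31-base words of the longest coding transcript, 32.1% of those of CCL3 also occur in CCL3L3 and 36.0% of those of CCL4 in CCL4L2, whereas CCL3 and CCL4 share 0. CCL3L3 measured 1.66, 3.62 and 2.27 TPM in untreated libraries and between 24.3 and 54.8 TPM in treated libraries. CCL4L2 measured 0.0745, 0.402 and 0.0531 TPM in untreated libraries and between 6.75 and 13.3 TPM in treated ones. Both copies were thus higher in every treated than in every untreated library, with log2 differences of 3.83, 3.06 and 3.18 for CCL3L3 and 3.41, 2.84 and 3.21 for CCL4L2 at days 2, 3 and 5, given with no test because their reads may be those of the members.

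The copy genes took a minor part of each pair after treatment. CCL3L3 held 4.55% ± 2.18 of the summed TPM of the CCL3 pair before treatment and 9.77% ± 0.518, 8.12% ± 0.302 and 6.76% ± 0.402 on the treated days (SD, n = 3 each). CCL4L2 held 21.1% ± 4.36 of its pair on day 2, 23.4% ± 0.581 on day 3 and 26.8% ± 3.12 on day 5. In untreated cells its share ranged from 15.3% to 66.3%, at pair sums of 0.346 to 0.607 TPM. Summed, the CCL3 pair went from 56.6 ± 4.30 TPM in untreated cells to 491.8 ± 39.8, 339.5 ± 11.2 and 447.3 ± 68.2 TPM at days 2, 3 and 5, and the CCL4 pair from 0.456 ± 0.135 to 54.6 ± 2.72, 31.4 ± 2.28 and 37.0 ± 3.93 TPM, so the order of days was that of CCL3 and CCL4 alone. GENCODE release 29 calls the gene given here as CCL3L3 by the symbol CCL3L1, and the identifier (ENSG00000276085.1) is the same. CCL4L1 and CCL3P1 were not analysed here.

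The genes next to the 3 members were silent or nearly so. CCL23 and CCL18, chemokine genes on the other side of CCL3, were listed at 0 in every library. AC243829.4, an antisense RNA that overlaps CCL3, had means of 0.205, 0.327, 0.347 and 0.643 TPM in untreated cells and at days 2, 3 and 5. Whether the counting used strand is not given in the sources used here, so reads of CCL3 and of this gene may not be separable where they overlap. RGS21 and RGS13, the RGS genes on either side of RGS1, had group means of at most 0.0264 TPM.

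For each gene the features with the most alike course were found by the root mean square difference over the 12 libraries in log2(TPM + 1), each minus its own untreated mean. This measure follows mainly the size of the rise, on which the 3 genes were picked, so likeness among them is a description that adds no support. RGS1 and CCL4 were each other's nearest of the 11939 features, at 0.496. They were followed for both by IFI6 (0.846 from CCL4 and 0.863 from RGS1) and IFI27 (1.05 and 0.916), interferon-stimulated genes. CCL3 had other neighbours: the replication-dependent histone gene H4C14 (0.268), the long non-coding RNA LINC01480 (0.325) and the histone gene H2AC19 (0.358). H4C14 went from 12.8 TPM in untreated cells to 80.2, 83.5 and 93.0 TPM at days 2, 3 and 5, IFI6 from 10.7 to 218.5, 201.5 and 94.0, and IFI27 from 22.0 to 1104, 1455 and 1059 TPM. CCL3 stood 1.57 from CCL4, at place 216 among the features nearest to CCL3, and 1.67 from RGS1, at place 298, with a smaller rise than either. With a pseudocount of 0.1, 5 of the 9 named neighbours stayed among the nearest 3. IFI27 was then the nearest to both CCL4 and RGS1, with RGS1 at place 2 for CCL4 and CCL4 at place 3 for RGS1. After rescaling CCL4 and RGS1 were again the nearest of each other, and IFI27 was at places 15 and 9.

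Marker genes of other cell types that make these chemokines were checked in the same libraries. Of 12 plasma cell markers 10 passed the filter, at a summed 12150 to 14300 TPM in untreated and 19190 to 28460 TPM in treated libraries. Most of that sum was JCHAIN, with means of 9697 TPM in untreated cells and 16920, 23660 and 17340 TPM at days 2, 3 and 5, while SDC1 went from 495.5 to 143.6 TPM and XBP1 from 1547 to 366.1 TPM at day 5. The 12 monocyte and macrophage markers summed to between 0.0452 and 0.782 TPM over all 12 libraries, 0 of them passed the filter, and FCGR3A and CD163 were at 0 in every library. The 13 T and NK cell markers summed to 26.8 to 29.1 TPM in untreated and 12.4 to 28.5 TPM in treated libraries, most of it NCAM1. Of these 2 passed the filter. CD3D was at 0, while CD3E had means of 3.00 TPM in untreated cells and 6.33, 5.79 and 4.01 TPM at days 2, 3 and 5. The 8 mature B cell markers, led by CD79B, summed to 8.85 to 17.99 TPM, and 2 passed the filter. CD22 was at 0, while FCER2 had means of 0.14 TPM in untreated cells and 2.67, 2.02 and 1.03 TPM at days 2, 3 and 5. Stromal markers, led by COL1A1, summed to at most 0.498 TPM, with COL1A2 and COL3A1 at 0. In bulk RNA, more cells that express a gene and more RNA per cell cannot be told apart.

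The other chemokine ligands were mostly absent. Of the 41 other than CCL3 and CCL4, 35 had a mean under 0.1 TPM in every group, and 2, CCL5 and CXCL10, passed the filter. CCL5, a ligand of CCR1 and CCR3, measured 0.804, 0.856 and 1.25 TPM in untreated cells and 3.05, 2.69 and 2.61 TPM at day 2, where it rose by 0.95 (limma adjusted p = 2.29e-04). Its later differences were 0.39 (day 3) and 0.30 (day 5), neither called, and 0.85 and 0.997 after rescaling, both called. With only 1 untreated library above 1 TPM, CCL5 passed the filter through the treated libraries, so its calls are no support. CXCL10, an interferon-induced ligand of CXCR3, was at or below 0.0635 TPM in untreated libraries and reached 2.46, 1.49 and 1.08 TPM at day 5, with differences of 0.54 at day 3 and 1.36 at day 5. It passed the filter through the 3 day 5 libraries alone, so that it was called there is no support. CCL5 was called at day 2 and CXCL10 at days 3 and 5. Thus 1 of 2 was called higher on each day, beside 8.03%, 7.59% and 7.73% of all tested features. Called lower were 0, beside 23.2%, 61.5% and 69.8% of tested features at days 2, 3 and 5. The median of the 2 ligands was 0.56, 0.47 and 0.83.

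CCR1, the receptor of CCL3 that these cells express, measured 37.9, 38.4 and 34.9 TPM in untreated libraries. It was 27.0, 28.1 and 28.2 TPM at day 2, 15.2, 17.2 and 13.5 TPM at day 3, and 4.55, 6.03 and 7.90 TPM at day 5. No 2 groups overlapped, and each later day was lower. Its difference from untreated was -0.40 on day 2, not called, then -1.23 and -2.44 (limma adjusted p = 0.0384, 4.12e-06 and 3.06e-09). After rescaling they were -0.17, -0.36 and -1.25, of which that at day 5 was called (limma adjusted p = 1.03e-07). CCR3 lay between 0.0202 and 0.258 TPM in all libraries.

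Of 22 listed receptors 4 passed the filter. With limma 0 were called higher, also 0 at an unadjusted p under 0.05, and 1, 4 and 4 were called lower at days 2, 3 and 5, beside 23.2%, 61.5% and 69.8% of all tested features, with medians of -0.41, -1.16 and -1.77. The largest fall at days 2 and 3 was that of CXCR3, the receptor of CXCL10, with differences of -0.87 and -1.41 (limma adjusted p = 9.88e-05 and 2.62e-07), from a mean of 1.92 TPM. CXCR3 was above 1 TPM in untreated libraries alone and passed the filter through them. Its calls, 1 of those called lower on each day, are therefore no support. CCR10 differed by 0.23 at day 2, not called, and by 0.42, 0.050 and 0.48 on the 3 days after rescaling, none of them called. After rescaling 1, 1 and 3 receptors were called lower, that of days 2 and 3 being CXCR3. Those of day 5 were CCR1, CXCR3 and CXCR4, on rescaled backgrounds of 11.2%, 22.7% and 24.6% lower at days 2, 3 and 5.

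Of 20 other RGS genes 9 passed the filter, and 3, 3 and 1 were called higher and 2, 4 and 5 lower at days 2, 3 and 5. These are 33.3%, 33.3% and 11.1% higher, beside 8.03%, 7.59% and 7.73% of all tested features. The lower shares were 22.2%, 44.4% and 55.6%, beside 23.2%, 61.5% and 69.8%. Medians of the 9 genes were 0.012, -0.45 and -0.82. RGS2 and RGS6 were under 1 TPM in every untreated library and passed the filter through treated libraries alone, so their calls, 2, 2 and 1 of those called higher, are no support. RGS2, which acts mainly on Gαq, went from 0.594 TPM to 1.40, 2.65 and 1.77 TPM, a difference of 1.19 at day 3. Like RGS1 it was highest at day 3, and its difference between day 2 and day 3 was 0.61 (limma adjusted p = 0.00284). RGS20 had the largest rise at day 2, by 0.93 (limma adjusted p = 6.76e-05). RGS9 had the largest fall at day 2, a difference of -0.83 (limma adjusted p = 2.26e-04), and RGS14 at days 3 and 5, with -1.31 and -1.60 (limma adjusted p = 8.04e-07 and 6.41e-08), though RGS14 was not called after rescaling. RGS9 was above 1 TPM in untreated libraries alone and passed the filter through them. Its calls, 1 of those called lower on each day, are therefore no support. RGS16 had the highest mean of the family in every group, at 84.2 TPM in untreated cells and 117.9, 61.9 and 47.98 TPM at days 2, 3 and 5. After rescaling 4 RGS genes were called higher and 1, RGS9, lower on each day. Of all features 13.0%, 24.9% and 29.1% were then called higher and 11.2%, 22.7% and 24.6% lower.

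Among the targets of RGS proteins, 9 of 16 Gα subunit genes passed the filter. GNAI1, a Gαi subunit, was the only one called higher, on all 3 days and under both scalings, with differences of 0.85, 0.80 and 0.59 (limma adjusted p = 9.08e-05, 4.02e-05 and 4.27e-04) from a mean of 5.51 TPM. Called lower were 2, 7 and 8 (22.2%, 77.8% and 88.9%, beside 23.2%, 61.5% and 69.8% of all tested features), with medians of -0.34, -0.78 and -1.10 beside -0.18, -0.73 and -0.99 for all tested features. GNAL had the largest fall at day 2, a difference of -0.66 (limma adjusted p = 0.00154). GNA13 had those at days 3 and 5, with -1.46 and -1.90 (limma adjusted p = 1.27e-07 and 5.00e-09). GNAL was at 1.57 to 2.28 TPM in untreated libraries, at most 1.02 TPM at day 2 and under 1 TPM later. It passed the filter through the untreated libraries, so its calls, 1 of those called lower on each day, are no support. After rescaling 0, 2 and 3 were called lower, beside 11.2%, 22.7% and 24.6% of all tested features.

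All 20 listed NF-κB subunits, inhibitors and regulators passed the filter, and 4, 2 and 2 were called higher and 2, 11 and 12 lower at days 2, 3 and 5. The lower share was 10%, 55.0% and 60.0%, beside 23.2%, 61.5% and 69.8% of all tested features, and the higher share 20%, 10% and 10% beside 8.03%, 7.59% and 7.73%. RELB, a subunit of the non-canonical pathway, had the largest rise on each day, by 1.31, 0.82 and 0.79 (limma adjusted p = 3.20e-06, 5.06e-05 and 5.15e-05), from 6.72 TPM to 18.1, 12.5 and 12.3 TPM. NFKB2, a further subunit of that pathway, differed by 0.69, -0.071 and -0.59, called higher at day 2 and lower at day 5. After rescaling NFKB2 differed by 0.90, 0.77 and 0.60, called higher on each day. TRAF2, an adaptor of TNF receptors that holds the non-canonical pathway in check, had the largest fall, with differences of -0.72, -1.54 and -1.997 (limma adjusted p = 0.00137, 4.58e-07 and 1.94e-08). After rescaling 8 were called higher on each day, beside 13.0%, 24.9% and 29.1% of all features. Called lower were 0, 1 and 2, beside 11.2%, 22.7% and 24.6%. Medians were 0.056, -0.63 and -0.83.

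Of 38 activation-responsive genes of B-lineage cells 26 passed the filter, and 10, 3 and 4 were called higher and 1, 14 and 15 lower. These are 38.5%, 11.5% and 15.4% higher, beside 8.03%, 7.59% and 7.73% of all tested features, and 3.85%, 53.8% and 57.7% lower, beside 23.2%, 61.5% and 69.8%. JUN and BCL2A1, an immediate-early transcription factor and a survival gene, were called higher on all 3 days under both scalings, by 0.94, 1.09 and 1.22 for JUN (limma adjusted p = 2.57e-04, 1.63e-05 and 4.09e-06). ZFP36L1, an RNA-decay factor, had the largest rise at day 2, by 1.04 (limma adjusted p = 2.66e-04), and FOS those at days 3 and 5, with differences of 1.58 and 1.65. FOS was under 1 TPM in every untreated library and passed the filter through treated libraries alone, so its calls are no support. FOSL1 had the largest fall at days 2 and 3, with differences of -0.91 and -1.63 (limma adjusted p = 1.59e-04 and 1.82e-07), and DUSP6, a phosphatase induced by ERK signaling, at day 5, with -2.05 (limma adjusted p = 3.40e-10). FOSL1 was at 2.70 to 3.20 TPM in untreated libraries, at most 1.53 TPM at day 2 and under 1 TPM later. It passed the filter through the untreated libraries, so its calls, 1 of those called lower on each day, are no support. Medians were 0.37, -0.60 and -0.62, and rescaled calls 14, 11 and 13 higher and 1, 1 and 5 lower. The rescaled shares of all features were 13.0%, 24.9% and 29.1% higher and 11.2%, 22.7% and 24.6% lower.

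Of 23 further factors linked to myeloma bone disease 5 passed the filter. With limma 0 were called higher, and 0, 3 and 2 (0%, 60.0% and 40.0%) lower, at days 2, 3 and 5. Of all tested features 23.2%, 61.5% and 69.8% were called lower and 8.03%, 7.59% and 7.73% higher. At an unadjusted p under 0.05 the counts of these 5 factors were 0 higher and 1, 3 and 4 lower, with medians of -0.20, -0.67 and -0.47. TGFB1, which encodes a bone matrix growth factor, had the largest fall at days 3 and 5, with differences of -1.68 and -2.01 (limma adjusted p = 1.30e-06 and 1.27e-07), from 52.8 TPM to 15.9 and 12.6 TPM. After rescaling 0, 1 and 2 were called higher and 0, 1 and 1 lower. Those higher were DKK1 at days 3 and 5 (0.90 and 1.25) and VEGFA at day 5 (0.74). Of all features 13.0%, 24.9% and 29.1% were then called higher and 11.2%, 22.7% and 24.6% lower. TNFSF11, the osteoclast factor RANKL, had a value above 0 in 1 library.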

How the data were processed

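The authors deposited log2 values of TPM plus 1 for 59276 features in 12 libraries of MM1S total RNA. Per the labels, each had more than 60 M read pairs from 200 ng of RNA, and the submitters' processing notes name FastQC, Trimmomatic, STAR, Salmon and hg38, with no versions. Which tool made the TPM, the annotation and the strand setting are not given in the sources used here. TPM keeps no counts, so depth behind a value is unknown.

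The 11939 features that reached 1 TPM in 3 or more libraries were fitted with limma 3.58.1 in R 4.3.3, with 1 mean per group and a mean-variance trend. Two-sided p-values were adjusted by the Benjamini-Hochberg procedure, separately for each contrast. The 3 ratios were compared by an exact permutation test. On simulated data of 11939 features for day 2 against untreated, 190 of 200 features changed by 1.5 on the log2 scale and 8 unchanged features were called. Coordinates and transcripts are from GENCODE release 29, and upstream sequences from RefSeq.

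The members and gene lists were chosen with earlier results of these data known. Named genes are the members, their copies and chromosomal neighbours, the 3 features most like each, the receptors CCR1 and CCR3, and the largest called rise and fall in each list at each day. RGS16, JUN, BCL2A1, CXCR4, TNFSF11, CCL2, CXCL8, CXCL16, CCR10, RGS6, JCHAIN, SDC1, XBP1, DKK1, VEGFA, CD3E, FCER2 and NFKB2 were named after their values were seen. Alternatives were rescaling, leaving out the 20 most abundant features, a pseudocount of 0.1, no filter or a TPM of at least 5, no trend, pairwise fits, a threshold of 1 and leaving out each library. 1 further receptor is not reported here.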

Additional observations from a re-analysis of the deposited data

Results flagged for a closer look

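These differences between treated days passed limma's test in the fit of all 12 libraries. Time in culture and time in NGI-1 cannot be told apart in them, since no untreated library is labelled for a later day. For CCL3, CCL4 and RGS1, the day on which a gene was highest can also have favoured its choice. CCL3 was lower at day 3 than at day 2 by a log2 difference of -0.50. CCL4 was lower at day 3 than at day 2 (-0.82) and at day 5 than at day 2 (-0.65). RGS1 was lower at day 5 than at day 3 (-0.54). CCR1 was lower at day 3 than at day 2 (-0.82), at day 5 than at day 3 (-1.21) and at day 5 than at day 2 (-2.03). The median of all tested features moved by -0.57, -0.25 and -0.83 over these 3 intervals (day 2 to day 3, day 3 to day 5, day 2 to day 5), and what share of each difference follows from it was not tested. After rescaling, the differences of CCR1 were -0.19, -0.89 and -1.08, of which the last 2 were called. Rescaled, CCL3 from day 2 to day 3 was 0.16, CCL4 -0.17 and, to day 5, 0.37, and RGS1 from day 3 to day 5 -0.17, none of them called.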

How the results depend on the processing

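Groups of 3 libraries, values without counts and a median that falls with time in NGI-1 limit these results, and the cause of the changes below was not tested. No paired analysis was possible because the libraries carry the numbers H1 to H12 and share none between groups.

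The rises over untreated kept their sign under every alternative run. They moved by over 1 SD after rescaling to 3.24, 3.40 and 4.19 for CCL3 at days 2, 3 and 5, to 4.85, 4.68 and 5.22 for CCL4, and to 5.50 and 5.33 for RGS1 at days 3 and 5. Without the 20 most abundant features they were 2.77 and 3.25 for CCL3 at days 3 and 5, 5.46, 4.79 and 5.03 for CCL4 and 4.84, 5.45 and 4.97 for RGS1. A pseudocount of 0.1 gave 6.84, 6.004 and 6.17 for CCL4 and 5.67, 6.13 and 5.58 for RGS1. Leaving out a library gave 2.93 to 3.07, 2.43 to 2.56 and 2.81 to 3.03 for CCL3, 5.06 to 5.17, 4.23 to 4.34 and 4.39 to 4.50 for CCL4, and 4.45 to 4.71, 4.90 to 5.17 and 4.36 to 4.62 for RGS1.

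Between days, rescaling turned CCL3 from day 2 to day 3 to 0.16 and from day 2 to day 5 to 0.95, CCL4 from day 2 to day 5 to 0.37, and RGS1 from day 2 to day 5 to 0.94. It ended the calls of CCL4 from day 2 to day 3 (-0.17) and of RGS1 from day 3 to day 5 (-0.17), and brought calls for CCL3 (0.79) and CCL4 (0.54) from day 3 to day 5 and RGS1 from day 2 to day 3 (1.11). Without the 20 most abundant features CCL3 and RGS1 from day 2 to day 5 turned to 0.13 each, the calls of CCL3 from day 2 to day 3 (-0.35), CCL4 from day 2 to day 5 (-0.44) and RGS1 from day 3 to day 5 (-0.48) were lost, and RGS1 from day 2 to day 3 was called (0.61). With a pseudocount of 0.1 the call of RGS1 from day 3 to day 5 was lost (-0.55). Leaving out a library gave, from day 2 to day 3, -0.56 to -0.45 for CCL3, -0.89 to -0.77 for CCL4 and 0.39 to 0.58 for RGS1. From day 3 to day 5 it gave 0.30 to 0.52 for CCL3, 0.10 to 0.22 for CCL4 and -0.67 to -0.48 for RGS1. From day 2 to day 5 it gave -0.20 to 0.014 for CCL3, with the sign turned without H10, -0.72 to -0.60 for CCL4 and -0.13 to -0.033 for RGS1. The exact permutation p of the ratios stayed between 0.00357 and 0.0107 for CCL3 to CCL4, 0.00357 and 0.00714 for RGS1 to CCL4 and 0.025 and 0.0393 for CCL3 to RGS1.

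Over all lists with the members left out, 19, 10 and 9 genes were called higher and 8, 43 and 46 lower at days 2, 3 and 5. The lists held 2, 4, 9, 9, 20, 26 and 5 tested genes, in the order in which they are described above. The shares of all tested features were 8.03%, 7.59% and 7.73% higher and 23.2%, 61.5% and 69.8% lower. After rescaling, 27 and 30 list genes were higher at days 3 and 5 and 3, 7 and 15 lower. Of all features 24.9% and 29.1% were then higher at days 3 and 5, and 11.2%, 22.7% and 24.6% lower on the 3 days. With a threshold of 1, 3, 4 and 4 were higher, 0 were lower at day 2 and 23 at day 3. With a TPM of at least 5, 3 and 4 were higher at days 3 and 5 and 4 lower at day 2. Without the 20 most abundant features 14 were higher at day 5. No share of all features stands beside the counts for the threshold of 1, the TPM of 5 and the 20 features left out. Nothing is read from those counts about the lists. Without a library the counts were 18 to 20, 10 and 8 to 10 higher and 7 to 9, 41 to 43 and 42 to 48 lower. TGFB1 at day 2 turned to 0.031 after rescaling. ZFP36L1, not called at days 3 and 5, ranged without a library from -0.0202 (H8) to 0.179 at day 3, and from -0.213 (H12) to 0.157 at day 5, where it was also below 0 without H3 (-0.002).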

Other observations

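Chemokine ligands under the filter on low values gave small readings that belong in no comparison. CCL2, a monocyte chemokine, had a mean of 0.733 TPM in untreated cells (0.365 to 0.985 over 3 libraries) and 0.193, 0.133 and 0.0481 TPM at days 2, 3 and 5. CXCL16 had 0.736, 0.681, 0.326 and 0.125 TPM in the same order. CXCL8, a neutrophil chemokine, stood at 0 in the untreated group and above 0 in each of the 9 treated libraries, with means of 0.136, 0.121 and 0.157 TPM. Of the 43 ligands 24 were listed at 0 in every library.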
